A study of Mus musculus with 2 samples.

Results

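Sphingosine-1-phosphate (S1P) genes were located in inflamed mouse skin: the receptors S1pr1, S1pr2, S1pr3, S1pr4 and S1pr5, the kinases Sphk1 and Sphk2, the lyase Sgpl1, the phosphatase Sgpp2 and the transporter Spns2. Each was taken as the row of the count matrix that carries its symbol, which gave 10 of 19465 genes. Spatial transcriptomics had been performed on 1 skin section of an S1pr2 f/f mouse and on 1 section of an S1pr2 f/f K14-Cre mouse. Both mice were 8 weeks old, carried S1pr2 alleles flanked by loxP sites and received 62.5 mg of 5% imiquimod (IMQ) cream on depilated back skin for 7 days. The S1pr2 f/f mouse had no Cre, whereas Cre under the keratin 14 promoter, which is active in basal keratinocytes, was used to delete S1pr2 in the other. The question was which skin layers carry each gene and where S1pr2 is still found after deletion in keratinocytes. With 1 section of 1 mouse per genotype and no untreated skin among these samples, no test between genotypes was possible.

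S1P is a lipid made from sphingosine inside cells by the sphingosine kinases, carried out of some cells by the transporter SPNS2, and read on the cell surface by G protein-coupled receptors. The phosphatases return it to sphingosine and the lyase destroys it. In skin, S1P signals act on keratinocyte growth and differentiation, on vessels and on the traffic of lymphocytes.

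In mouse build GRCm38.p6 the receptor genes lie at S1pr1 (chr3:115710433-115715055, ENSMUSG00000045092), S1pr2 (chr9:20965952-20976793, ENSMUSG00000043895), S1pr3 (chr13:51408618-51422797, ENSMUSG00000067586), S1pr4 (chr10:81497745-81500137, ENSMUSG00000044199) and S1pr5 (chr9:21242917-21248443, ENSMUSG00000045087). The enzymes and the transporter lie at Sphk1 (chr11:116530836-116536675, ENSMUSG00000061878), Sphk2 (chr7:45709463-45718002, ENSMUSG00000057342), Sgpl1 (chr10:61098642-61147684, ENSMUSG00000020097), Sgpp2 (chr1:78309549-78420289, ENSMUSG00000032908) and Spns2 (chr11:72451638-72489976, ENSMUSG00000040447). S1pr2 and S1pr5 are on the same chromosome.

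The S1pr2 f/f section held 1282 spots over tissue and 5315351 UMIs (molecules counted by their barcodes), and the S1pr2 f/f K14-Cre section 981 spots and 2845826 UMIs. Median UMIs per spot were 3542.5 and 2319. A spot covers several cells, so regions were formed by clustering spots within each section without the S1P genes, and named from marker genes. The 357 spot barcodes that the sections share name the same positions of the array design and not the same tissue. Levels are given as CPM, the UMIs of a gene per 1000000 UMIs of the same region, with exact Poisson 95% intervals that cover counting error only. UMIs of a gene were often together in a spot, and intervals are too narrow where this holds. In the S1pr2 f/f section 34 spots held more than 1 S1pr2 UMI, where a Poisson spread gives 15.3. Spns2 (180 against 182), Sphk2 (131 against 126) and Sgpl1 (176 against 168) had little or no excess there. In the S1pr2 f/f K14-Cre section these genes had 34 against 18.2, 39 against 21.5 and 34 against 22.1. Levels are compared within a gene, since the number of probes per gene was not given in the sources used here. As a measure of background, 1226 olfactory, vomeronasal, taste and trace amine receptor genes had a mean of 2.21 CPM per gene in the S1pr2 f/f section and 5.98 in the S1pr2 f/f K14-Cre section.

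The keratinocyte-gene region lay uppermost, at a median position of 1 spot from the surface in each section. It had 248 spots and 1159490 UMIs in the S1pr2 f/f section, formed by a cluster of 136 spots led by Dnase1l3, Serpina12, Gm94, Sprr2b and Il1f6 and a cluster of 112 spots led by Kctd4, Arg1, Tmprss11g, Lce3a and Sprr2i. Both had the same median position from the surface and differed in depth, with medians of 5950.5 and 1437 UMIs per spot. At least 2-fold higher than in the other spots were 12 of 15 keratinocyte markers in the Dnase1l3 and 11 of 15 in the Kctd4 cluster. The keratinocyte-gene region of the S1pr2 f/f K14-Cre section had 115 spots and 391678 UMIs, was led by Sprr2i, Lce3a, Lce3c, Grhl3 and Gjb6, and had 15 of 15 markers higher. Of 7 basal keratinocyte markers, 1 was higher in each S1pr2 f/f cluster and 6 in the S1pr2 f/f K14-Cre region. All 6 differentiated keratinocyte markers were higher in each. Relative to the rest of its section, the region was thus not alike in basal markers between the sections. Beneath the keratinocyte-gene region lay sebaceous-gene regions with 207 and 325 spots and muscle-gene regions with 323 and 346 spots. Of the 323 spots, 158 formed a shallow cluster (median 906.5 UMIs per spot) with 7 of 7 muscle markers higher. A collagen-gene region with 256 spots lay there in the S1pr2 f/f section. It also had 6 of 7 adipocyte, 7 of 7 macrophage and 6 of 6 mast cell markers at least 2-fold higher than in the other spots. The region with most collagen-gene UMIs in the S1pr2 f/f K14-Cre section had 188 spots and was led by muscle genes of development and regeneration (Tnnc1, Myh8, Myl4, Tnni1 and Tnnt2), so it is called the collagen/Myh8 region. A further 202 shallow spots of the S1pr2 f/f section showed no layer's markers. Spots in which a member was found were deeper than the others, with a median of 5527 against 3198 UMIs for S1pr1 in the S1pr2 f/f section, so shares of spots are not compared between genes. Marker levels in spots with and without a member, given below, thus also compare spots of unlike depth. The part of depth in those ratios was not tested, and their intervals cover counting error of the summed UMIs only.

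S1pr2, the deleted gene, was found mainly outside the keratinocyte-gene region in both sections. Its 154 UMIs in the S1pr2 f/f section comprised 60 in the collagen-gene region, 50 in the sebaceous-gene region, 25 in the muscle-gene regions, 15 in the keratinocyte-gene region and 4 in the shallow spots without markers. Its 54 UMIs in the S1pr2 f/f K14-Cre section comprised 23 in the collagen/Myh8 region, 16 in the sebaceous-gene regions, 13 in the muscle-gene regions and 2 in the keratinocyte-gene region. The gene, which encodes a receptor that couples to several G proteins, was still detected in each of the other layers of the Cre section. As many UMIs or more were found there for 9.22% of the chemosensory receptor genes in the sebaceous-gene, 0.163% in the collagen/Myh8 and 0.326% in the muscle-gene regions. The sebaceous-gene regions were not free of basal keratinocyte genes. In the S1pr2 f/f section 3 of 7 basal keratinocyte markers were at least 2-fold higher in the sebaceous-gene region. Each keratinocyte-gene cluster of that section had 1 of 7. Whether the 50 S1pr2 UMIs of that sebaceous-gene region came from basal keratinocytes cannot be told from spots. In the Cre section 4 of 7 were higher in the sebaceous-gene cluster led by Klk14, and 0 of 7 in that led by Awat1. Nor can it be told whether the 16 S1pr2 UMIs there came from cells in which Cre acts.

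In CPM, S1pr2 was at 12.9 (7.24 to 21.3) in the keratinocyte-gene region of the S1pr2 f/f section, 31.3 (23.2 to 41.2) in the sebaceous-gene region, 47.1 (36.0 to 60.7) in the collagen-gene region and 22.9 (14.8 to 33.7) in the muscle-gene regions. The corresponding values in the S1pr2 f/f K14-Cre section were 5.11 (0.618 to 18.4), 20.7 (11.8 to 33.6), 28.5 (18.1 to 42.8) and 14.9 (7.91 to 25.4). Among these named regions, the collagen-bearing ones were highest and the keratinocyte-gene region lowest in both. However, the intervals of the muscle-gene and keratinocyte-gene regions overlapped. In the Cre section that of the keratinocyte-gene region overlapped all others. With spots given to the layer of highest marker share, collagen-gene spots of the S1pr2 f/f section had 50.5 (37.9 to 65.9). Hair-follicle-gene spots had 40.1 (26.4 to 58.4) and keratinocyte-gene spots 17.6 (12.2 to 24.7). In the Cre section adipocyte-gene spots had 26.96, collagen-gene spots 26.27 and hair-follicle-gene spots 19.7 (6 UMIs). Keratinocyte-gene spots had 12.2 there, and these intervals overlapped. The log2 ratio of the keratinocyte-gene region to the other spots was −1.37 (−2.25 to −0.60) in the S1pr2 f/f section and −2.05 (−5.14 to −0.13) in the S1pr2 f/f K14-Cre section. The latter rests on 2 UMIs and was −0.23 (−1.11 to 0.62) with the 2 uppermost spots of each array column in place of the region.

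**Figure D1:**
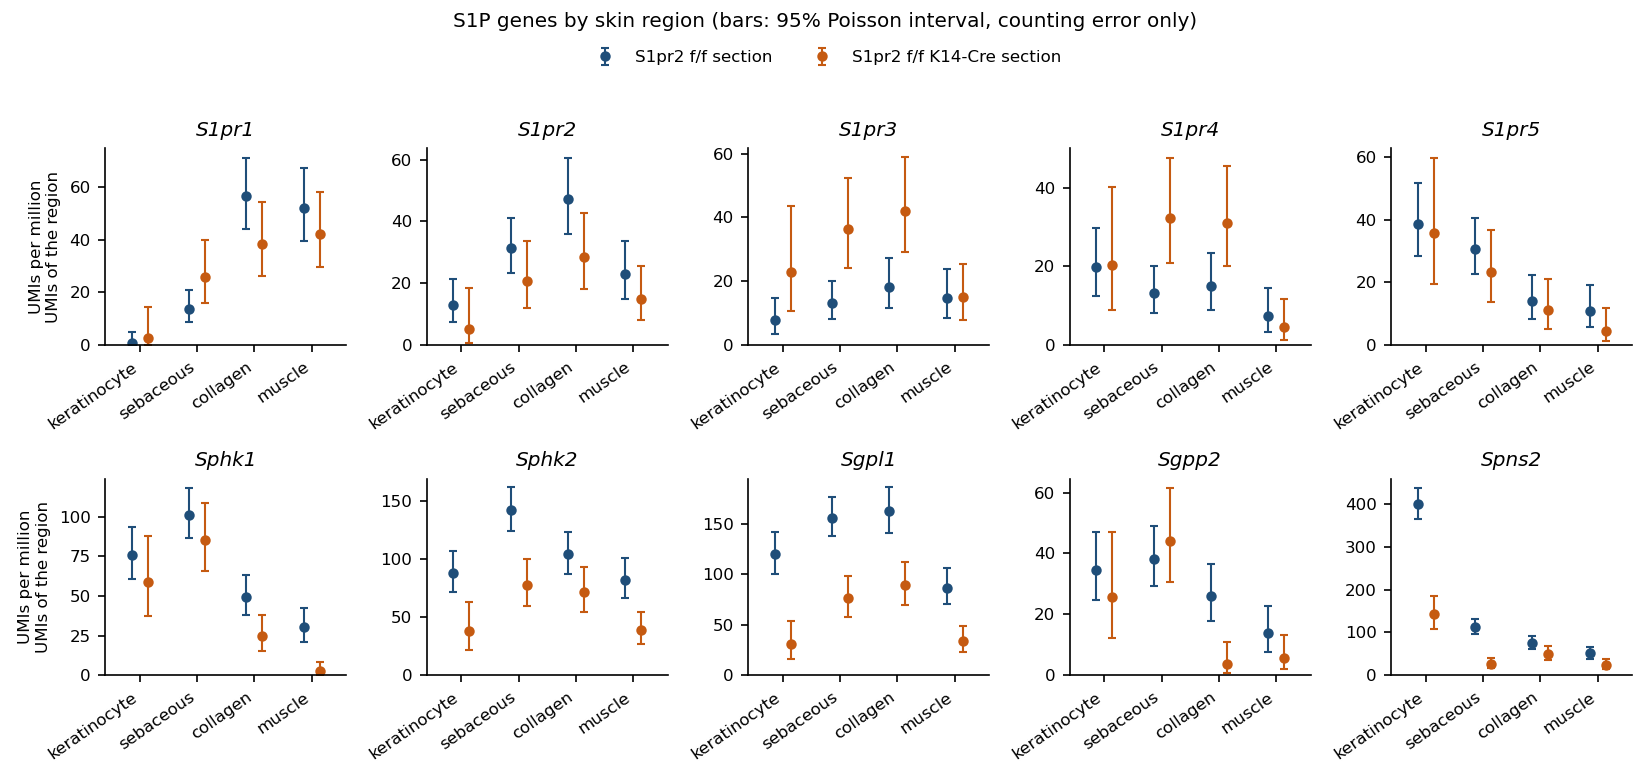
Level of each S1P gene (CPM, UMIs per 1000000 UMIs of the region, linear axes from 0) in the keratinocyte-gene, sebaceous-gene, collagen-gene (collagen/Myh8 in the Cre section) and muscle-gene regions of the S1pr2 f/f section (blue) and the S1pr2 f/f K14-Cre section (orange). Points are 1 section each and bars are exact Poisson 95% intervals; Spns2 stood at 400 in the keratinocyte-gene region of the S1pr2 f/f section, and S1pr1 at 0.862.

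The few S1pr2 UMIs of the keratinocyte-gene region lay at its edge. All 12 spots of this region that held S1pr2 in the S1pr2 f/f section touched a spot of another region, as did 64.8% of its 236 spots without S1pr2. Their collagen-gene level of 3716 CPM was near the 3070 of the spots without S1pr2, and their median depth was 7891 against 3208.5 UMIs. Both UMIs in the S1pr2 f/f K14-Cre section came from a single spot of 8244 UMIs, in which collagen genes stood at 21228 and keratinocyte genes at 41485 CPM, against 3779 and 74800 in the 114 spots without S1pr2, of which 90.4% touched another region. In that region 59.0% of the chemosensory receptor genes had as many UMIs as S1pr2 or more, whereas only 0.0816% did in the keratinocyte-gene region of the S1pr2 f/f section.

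Between the sections, S1pr2 in the keratinocyte-gene region differed by a log2 ratio of −1.34 (−4.51 to 0.76) for S1pr2 f/f K14-Cre over S1pr2 f/f, so a difference was not detectable at this depth. The region was also not alike in basal keratinocyte markers, with 1 of 7 higher in each S1pr2 f/f cluster and 6 of 7 in the Cre section. In all other spots, 139 and 52 UMIs gave 33.4 and 21.2 CPM and a log2 ratio of −0.66 (−1.15 to −0.19). Where the S1pr2 probes bind relative to the deleted segment was not given in the sources used here, so UMIs of S1pr2 do not by themselves show an intact allele. With the 2 uppermost spots of each array column in place of the region, the ratio in the surface layer was 0.06 (30 UMIs in the S1pr2 f/f and 19 in the S1pr2 f/f K14-Cre section), and with clustering at resolution 0.5 it was −0.19 (13 and 5 UMIs).

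S1pr2 also differed along the sections. In the spots outside the keratinocyte-gene region, 4 segments of each section from one end to the other gave 19.6, 28.4, 34.4 and 54.7 CPM in the S1pr2 f/f section and 27.2, 10.6, 17.4 and 24.6 in the S1pr2 f/f K14-Cre section. The 4th S1pr2 f/f segment, at 54.7 (43.0 to 68.7), held 74 of the 139 UMIs and lay above every segment of the S1pr2 f/f K14-Cre section. The highest upper limit there was 42.0. The intervals of the other S1pr2 f/f segments overlapped those of the S1pr2 f/f K14-Cre section. By order from the surface, S1pr2 went from 11.0 in the uppermost spots to 36.5 in the 3rd and 50.4 from the 6th spot inwards in the S1pr2 f/f section, and from 9.49 to 26.4 in the 3rd spot in the S1pr2 f/f K14-Cre section, where it stood at 3.78 (1 UMI) from the 6th inwards.

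Spots with S1pr2 had a higher collagen-gene CPM than spots without it, by 1.26-fold (1.24 to 1.29) in the S1pr2 f/f section and 1.85-fold (1.81 to 1.90) in the S1pr2 f/f K14-Cre section. Genes of developing muscle were 7.79-fold (7.04 to 8.62) higher in spots with S1pr2 in the S1pr2 f/f K14-Cre section and 1.46-fold (0.93 to 2.24) in the S1pr2 f/f section. Their part in the S1pr2 level was not tested. In such sums of spots, fewer cells of a type and less RNA per cell cannot be told apart.

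**Figure D2:**
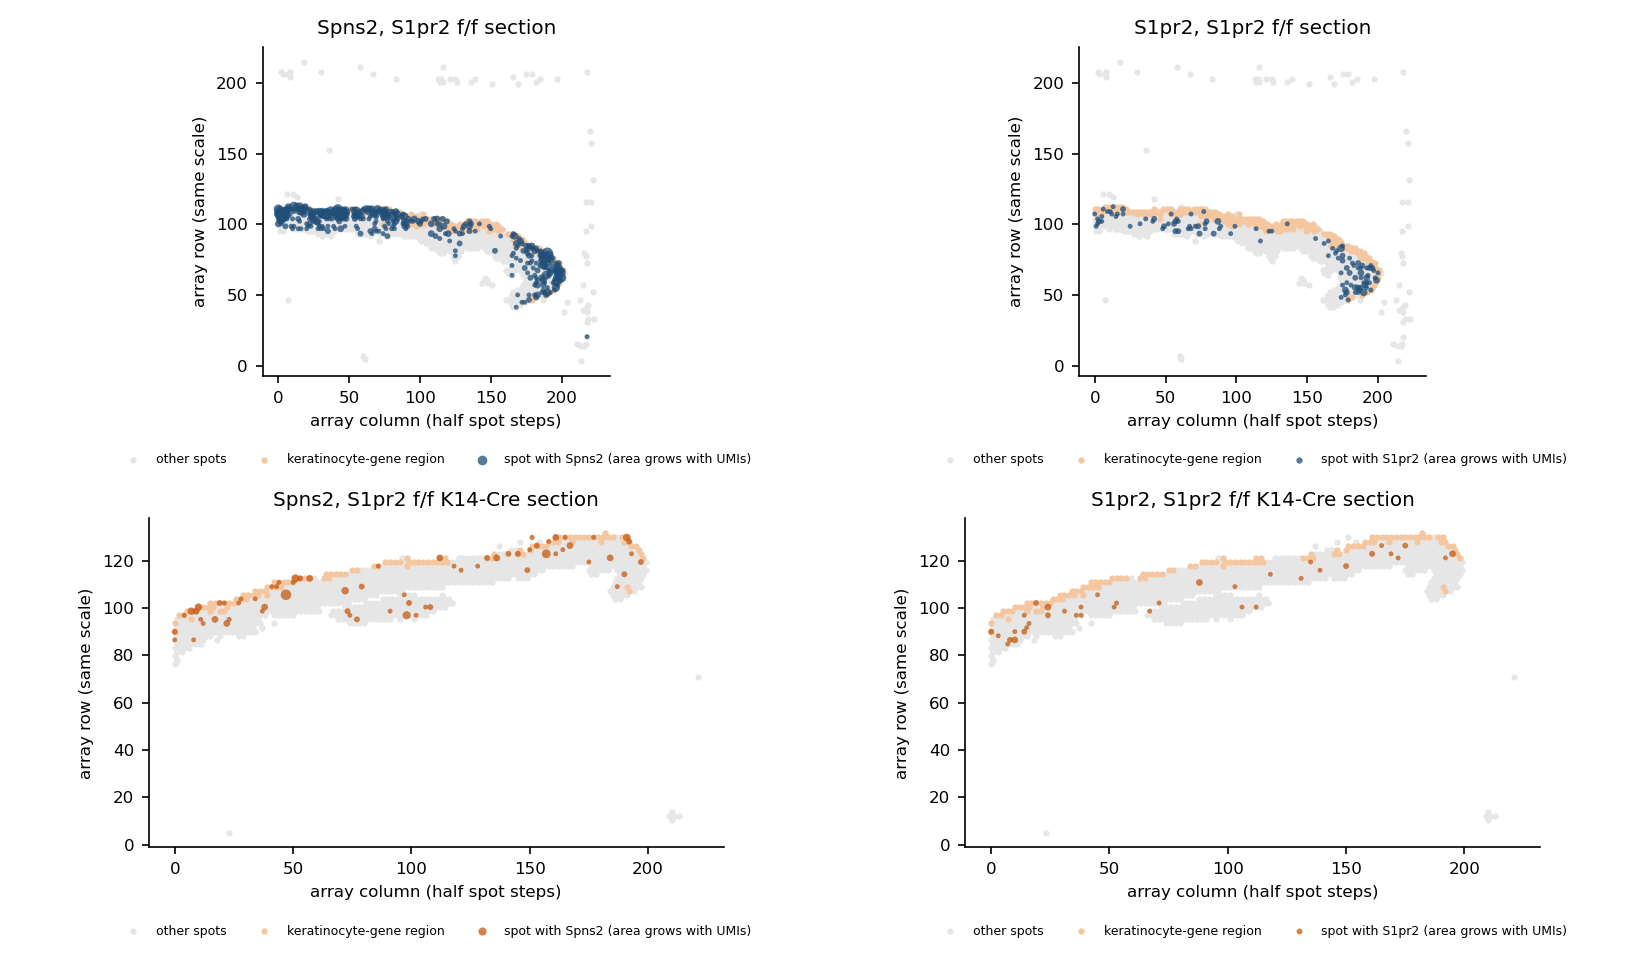
Array position of the spots over tissue in both sections (axes in array steps drawn to scale), with the keratinocyte-gene region in light orange, other spots in grey, and spots with Spns2 (left) or S1pr2 (right) marked in colour, the area growing with UMIs. Spns2 spots follow the keratinocyte-gene region, with 464 of 815 UMIs inside it in the S1pr2 f/f section, whereas 139 of 154 S1pr2 UMIs lie outside it; some scattered spots lie away from the tissue band.

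S1pr1, the receptor known for lymphocyte egress and for the integrity of vessels, was nearly absent from the keratinocyte-gene region. It had 1 of 153 UMIs there in the S1pr2 f/f section and 1 of 89 in the S1pr2 f/f K14-Cre section, although the region held 21.8% and 13.8% of all UMIs. As many UMIs or more were found there for 60.3% and 78.1% of the chemosensory receptor genes. Its level was 0.862 (0.0218 to 4.81) in the keratinocyte-gene region against 56.6 (44.3 to 71.3) in the collagen-gene and 52.1 (39.5 to 67.5) in the muscle-gene regions of the S1pr2 f/f section. The S1pr2 f/f K14-Cre section gave 2.55 (0.0646 to 14.2) against 38.4 (26.1 to 54.5) and 42.3 (29.8 to 58.3). The collagen-bearing and muscle-gene regions did not differ beyond their intervals in either section, and the sebaceous-gene regions lay between, at 13.8 and 25.9. Where spots were instead given to the layer of highest marker share, S1pr1 was highest in the adipocyte-gene spots, at 64.5 (48.3 to 84.4) and 49.0 (29.9 to 75.7). Muscle-gene spots had 48.5 (34.7 to 66.1) and 44.4 (30.9 to 61.8), and collagen-gene spots 32.7 (22.8 to 45.5) and 29.5 (17.5 to 46.7).

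The log2 ratio of S1pr1 in the keratinocyte-gene region to the other spots was −5.41 (−10.72 to −2.91) and −3.81 (−9.13 to −1.30), and −2.75 and −0.54 with the 2 uppermost spots of each array column in place of the region. From the surface inwards S1pr1 changed from 2.20 and 7.78 in the uppermost and the 2nd spot to 42.7 and 65.3 in the 3rd and 4th in the S1pr2 f/f section, and from 3.80 to 42.8 already in the 2nd spot in the S1pr2 f/f K14-Cre section. Spots with S1pr1 had a higher CPM of endothelial markers, by 1.94-fold (1.73 to 2.18) and 1.24-fold (1.02 to 1.51), and of smooth muscle and pericyte markers, by 2.27-fold (2.05 to 2.52) and 1.80-fold (1.51 to 2.14), in the S1pr2 f/f and the S1pr2 f/f K14-Cre section.

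S1pr5, a receptor known from natural killer cells and oligodendrocytes, showed the opposite placement. It stood at 38.8 (28.3 to 51.9) in the keratinocyte-gene region, 30.7 (22.7 to 40.5) in the sebaceous-gene region, 14.1 (8.38 to 22.4) in the collagen-gene region and 11.0 (5.67 to 19.2) in the muscle-gene regions of the S1pr2 f/f section. The S1pr2 f/f K14-Cre section gave 35.7 (19.5 to 60.0), 23.3 (13.8 to 36.8), 11.2 (5.10 to 21.2) and 4.57 (1.25 to 11.7). The order was the same in both sections, and neighbouring regions overlapped, except the sebaceous-gene and collagen-gene regions of the S1pr2 f/f section, while the keratinocyte-gene and muscle-gene regions did not. The log2 ratio to the other spots was 1.01 (0.45 to 1.56) and 1.501 (0.48 to 2.45). With spots given to the layer of highest marker share, keratinocyte-gene and hair-follicle-gene spots overlapped in both sections. They had 33.7 (26.0 to 43.0) and 29.7 (18.2 to 45.9) in the S1pr2 f/f section. The S1pr2 f/f K14-Cre section gave 27.2 (16.6 to 42.0) and 26.2 (11.3 to 51.7).

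S1pr5 in the S1pr2 f/f section had 44.2, 50.9 and 28.5 CPM in the keratinocyte-gene region against 22.5, 22.5 and 14.8 outside it in the 1st, 2nd and 4th of 4 segments, while the 3rd had only 1 UMI inside and 2 outside. In the S1pr2 f/f K14-Cre section the 2nd segment had no S1pr5 among the region's 24670 UMIs, a depth at which the interval reaches 149.5, the 3rd had 1 UMI inside, and the 1st and 4th gave 36.7 and 45.2 inside (8 and 5 UMIs) against 11.5 and 17.0 outside. Natural killer cell markers were not raised in spots with S1pr5 (9 UMIs, 0.67-fold, 0.30 to 1.34 in the S1pr2 f/f section and 1 UMI in the S1pr2 f/f K14-Cre section), whereas keratinocyte markers were 1.39-fold (1.37 to 1.40) and 1.96-fold (1.91 to 2.02) higher.

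S1pr3, which acts in vessels and smooth muscle, and S1pr4, a receptor of blood cells, gave few UMIs and no layer that stood apart in the S1pr2 f/f section. S1pr3 had 72 UMIs there, at 7.76 (3.55 to 14.7) in the keratinocyte-gene and 18.1 (11.5 to 27.1) in the collagen-gene region. It had 84 UMIs in the S1pr2 f/f K14-Cre section, at 23.0 (10.5 to 43.6) in the keratinocyte-gene, 36.2 (24.1 to 52.4) in the sebaceous-gene, 42.1 (29.2 to 58.9) in the collagen/Myh8 and 14.9 (7.91 to 25.4) in the muscle-gene regions. The collagen/Myh8 and muscle-gene regions of this section did not overlap for S1pr3. With spots given to the layer of highest marker share, S1pr3 in this section was highest in the hair-follicle-gene spots, at 65.6 (40.1 to 101). Collagen-gene spots had 27.9 (16.3 to 44.7), which overlapped. Hair-follicle-gene spots of the S1pr2 f/f section had 20.8 (11.4 to 34.9).

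S1pr4 ran from 7.31 (3.16 to 14.4) in the muscle-gene regions to 19.8 (12.6 to 29.8) in the keratinocyte-gene region of the S1pr2 f/f section. In the S1pr2 f/f K14-Cre section it ran from 4.57 (1.25 to 11.7) in the muscle-gene to 32.4 (20.9 to 47.8) in the sebaceous-gene regions, with 20.4 (8.82 to 40.2) in the keratinocyte-gene region. The muscle-gene regions had the lowest S1pr4 level in both sections, and in the S1pr2 f/f section they overlapped all the others. T cell markers were 1.17-fold (0.78 to 1.69) and 1.59-fold (0.96 to 2.51) in spots with S1pr4, intervals that hold 1. In the keratinocyte-gene region of the S1pr2 f/f K14-Cre section, 6.61% of the chemosensory receptor genes reached the S1pr4 count of 8 UMIs and 4.73% the S1pr3 count of 9 UMIs. Background was uneven across this section. The chemosensory receptor genes together stood at 12680 CPM in its sebaceous-gene regions, against 8550 in the keratinocyte-gene region and 7330 over all spots. Given as a mean per gene instead of a sum, they stood at 6.97 CPM in the keratinocyte-gene region and 5.98 over all spots. On the same measure, spots given to muscle by marker share had 2.14. The part of this background in the S1pr3 and S1pr4 levels was not tested.

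At least 1 receptor was found in 351 spots of the S1pr2 f/f and 179 spots of the S1pr2 f/f K14-Cre section, of which 61 and 17 belonged to the keratinocyte-gene region. This region had 248 of all 1282 and 115 of all 981 spots. More than 1 receptor occurred in 60 and 22 spots. The number to be met by chance at the depth of these spots was not computed.

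**Figure D3:**
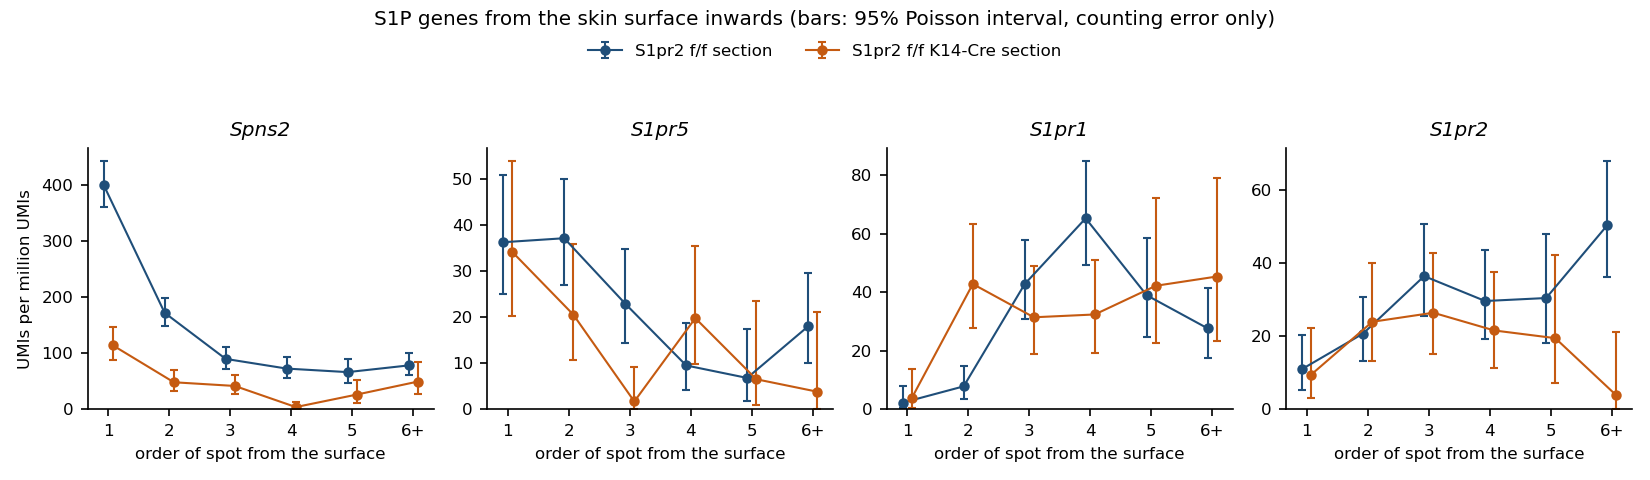
Spns2, S1pr5, S1pr1 and S1pr2 (CPM, linear axes from 0) by the order of a spot from the skin surface within its array column, from 1 at the surface to 6 or more, in the S1pr2 f/f (blue) and the S1pr2 f/f K14-Cre section (orange). Bars are exact Poisson 95% intervals; Spns2 went from 400 to 172 between the 1st and 2nd spot of the S1pr2 f/f section, whereas S1pr1 was near 0 at the surface and at 65.3 in the 4th spot.

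The kinases, which make S1P, had their highest levels among the named regions in the sebaceous-gene regions. Sphk1 stood at 101 (86.3 to 118) there, 75.9 (60.9 to 93.5) in the keratinocyte-gene, 49.5 (38.0 to 63.3) in the collagen-gene and 30.2 (20.8 to 42.4) in the muscle-gene regions of the S1pr2 f/f section. Corresponding values in the S1pr2 f/f K14-Cre section were 85.4 (66.1 to 109), 58.7 (37.2 to 88.1), 24.8 (15.1 to 38.3) and 2.29 (0.277 to 8.26). The order was the same in both, the sebaceous-gene and keratinocyte-gene regions overlapped, and in the Cre section the 2 Sphk1 UMIs in muscle were a count that 46.2% of the chemosensory receptor genes also reached.

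Sphk2, the kinase also found in the nucleus, followed a flatter course. Its levels in the S1pr2 f/f section were 143 (125 to 162) in the sebaceous-gene, 105 (87.5 to 124) in the collagen-gene, 88.0 (71.7 to 107) in the keratinocyte-gene and 82.3 (66.2 to 101) in the muscle-gene regions. They were, in the same order, 77.7 (59.3 to 100), 71.9 (54.6 to 92.9), 38.3 (21.4 to 63.2) and 38.9 (26.9 to 54.3) in the S1pr2 f/f K14-Cre section. Only the sebaceous-gene region of the S1pr2 f/f section lay clear of every other named region. Where spots were instead given to the layer of highest marker share, a division without a sebaceous layer, Sphk2 in the S1pr2 f/f K14-Cre section was highest in the adipocyte-gene spots, at 115 (84.7 to 153), and in the S1pr2 f/f section those spots had 91.3 (71.8 to 114). Sebaceous markers were 1.78-fold (1.69 to 1.88) higher in spots with Sphk1 and 1.72-fold (1.63 to 1.82) with Sphk2 in the S1pr2 f/f section, but 1.16-fold (0.98 to 1.36) and 0.91-fold (0.78 to 1.06) in the S1pr2 f/f K14-Cre section. The sebaceous-gene region of the S1pr2 f/f section had a median of 7086 UMIs per spot, against 3542.5 over all its spots. The part of this depth in the ratios was not tested.

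Sgpl1, the lyase that breaks S1P down irreversibly, was found in all layers. It stood at 163 (141 to 186) in the collagen-gene, 156 (138 to 177) in the sebaceous-gene, 120 (101 to 142) in the keratinocyte-gene and 86.8 (70.3 to 106) in the muscle-gene regions of the S1pr2 f/f section. In the S1pr2 f/f K14-Cre section the collagen/Myh8 region had 89.2 (69.8 to 112), the sebaceous-gene regions 76.4 (58.1 to 98.5), the keratinocyte-gene region 30.6 (15.8 to 53.5) and the muscle-gene regions 34.3 (23.1 to 49.0). The log2 ratio of the keratinocyte-gene region to the other spots was −0.22 (−0.49 to 0.05) in the first and −1.10 (−2.08 to −0.25) in the second. The latter turned to 0.10 with the 2 uppermost spots of each array column in place of the region.

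Sgpp2, a phosphatase that returns S1P to sphingosine, had its highest level among the named regions in the sebaceous-gene regions, which overlapped the keratinocyte-gene region. Its levels in the S1pr2 f/f section were 38.2 (29.2 to 49.0) in the sebaceous-gene, 34.5 (24.6 to 47.0) in the keratinocyte-gene, 25.9 (17.9 to 36.4) in the collagen-gene and 13.7 (7.67 to 22.6) in the muscle-gene regions. Those of the S1pr2 f/f K14-Cre section were 44.0 (30.5 to 61.5), 25.5 (12.2 to 47.0), 3.72 (0.766 to 10.9) and 5.72 (1.86 to 13.3). The Kctd4 cluster of the S1pr2 f/f section, of lower depth, had 103 (61.8 to 160) against 21.6 (13.3 to 32.9) in the Dnase1l3 cluster. The log2 ratio of the keratinocyte-gene region to the other spots, 0.32 (−0.24 to 0.85) and 0.58 (−0.58 to 1.60), held 0 in both sections, and 20 of the 40 UMIs of the region in the S1pr2 f/f section came from the 2nd of its 4 segments. Sgpp2 was lower inside the region than outside it in the 1st segment (9.31 against 25.4 CPM) and, with 1 UMI inside, in the 3rd (14.6 against 29.5) of this section. The ratio depended on how the region was drawn. For keratinocyte-gene spots by highest marker share it was 0.65 (0.17 to 1.12) in the S1pr2 f/f and 1.85 (1.01 to 2.71) in the S1pr2 f/f K14-Cre section. In the latter, 9 other settings ran from −0.24 to 2.99. Sebaceous markers were 1.97-fold (1.85 to 2.10) and 1.96-fold (1.60 to 2.37) higher in spots with Sgpp2.

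Spns2, the transporter that exports S1P, was the member most concentrated in the keratinocyte-gene region. This region held 56.9% of its 815 UMIs in the S1pr2 f/f section and 40.9% of its 137 UMIs in the S1pr2 f/f K14-Cre section. The level was 400 (365 to 438) in the keratinocyte-gene, 113 (97.3 to 131) in the sebaceous-gene, 74.7 (60.4 to 91.3) in the collagen-gene and 51.2 (38.7 to 66.5) in the muscle-gene regions of the first, and 143 (108 to 186), 25.9 (15.8 to 40.0), 49.6 (35.4 to 67.5) and 24.0 (14.9 to 36.7) in the second. The keratinocyte-gene region lay above all other named regions in both sections, at a log2 ratio to the other spots of 2.24 (2.04 to 2.45) and 2.11 (1.60 to 2.62). With spots given to the layer of highest marker share, keratinocyte-gene spots had 275 (252 to 299) and hair-follicle-gene spots 144 (117 to 176) in the first. In the second they had 85.6 (65.8 to 110) and 78.7 (50.4 to 117), which overlapped.

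Spns2 was higher inside the region than outside it in each of the 4 segments of both sections. The S1pr2 f/f section gave 529, 378, 349 and 283 inside against 83.7, 74.5, 103 and 89.5 CPM outside. Inside and outside values of the S1pr2 f/f K14-Cre section were 115, 243, 258 and 136 against 29.3, 21.2, 42.3 and 43.5. The level was also lower with distance in the S1pr2 f/f section. It went from 400 in the region to 111 at 1 to 2 spot steps, 67.6 at 3 to 5 and 56.4 beyond. In the S1pr2 f/f K14-Cre section it went from 143 to 49.98 and 23.2 (15.2 to 34.0). Beyond 5 steps it stood at 30.4 (18.0 to 48.0), which overlapped the band before. Within the keratinocyte-gene region of the S1pr2 f/f section, Spns2 was higher in the Kctd4 cluster, at 594 (488 to 716), than in the Dnase1l3 cluster, at 363 (326 to 403). Spots with Spns2 had 2.15-fold (2.13 to 2.18) the CPM of differentiated keratinocyte markers and 1.62-fold (1.60 to 1.64) that of basal markers there, and 2.01-fold (1.93 to 2.11) and 2.04-fold (1.98 to 2.11) in the S1pr2 f/f K14-Cre section.

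**Figure D4:**
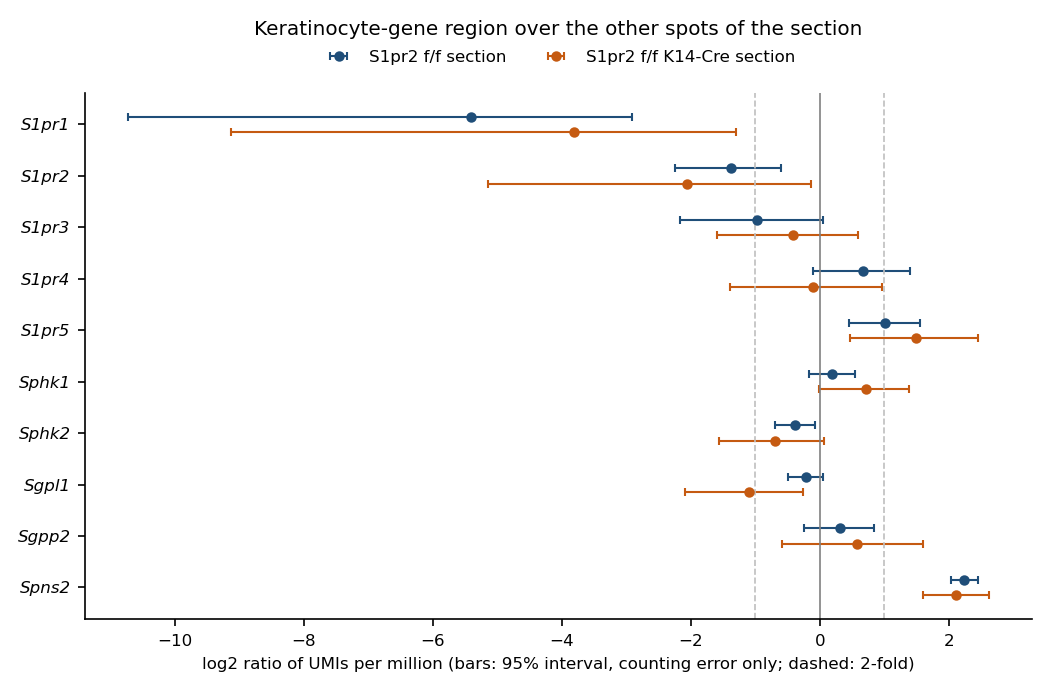
Log2 ratio of each S1P gene's level in the keratinocyte-gene region to that in the other spots of the same section, for the S1pr2 f/f (blue) and the S1pr2 f/f K14-Cre section (orange), with 95% intervals for counting error and dashed lines at 2-fold. Spns2 (2.24 and 2.11) and S1pr5 (1.01 and 1.501) lie to the right of 0 and S1pr1 (−5.41 and −3.81) and S1pr2 (−1.37 and −2.05) to the left in both sections.

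Among all genes with at least 20 UMIs in a section, differences of at least 2-fold between the keratinocyte-gene region and the other spots were common. Of the 10 members, 2 were at least 2-fold higher in the region of the S1pr2 f/f section (S1pr5 and Spns2), against 4.05% of 14300 genes, and 2 were lower (S1pr1 and S1pr2), against 41.9%. In the S1pr2 f/f K14-Cre section 2 were higher (S1pr5 and Spns2), against 13.4% of 15548 genes, and 3 were lower (S1pr1, S1pr2 and Sgpl1), against 27.4%. The share of members lower in the region was thus below or near that of all genes. The median log2 ratio of the members was −0.01 beside −0.71 over all genes tested in the first, and −0.19 beside −0.14 in the second.

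Other genes of S1P metabolism were described in the same way. Of 11 metabolism genes with enough UMIs, 1 was at least 2-fold higher in the keratinocyte-gene region of the S1pr2 f/f section, against 4.05% of all genes. Lower there were 4, against 41.9%. In the S1pr2 f/f K14-Cre section 4 were higher, against 13.4%, and 4 lower, against 27.4%. The counts of lower metabolism genes were thus near the shares of all genes. The same direction past 2-fold in both sections, with intervals that leave out equality, was found for 4 of the 11 metabolism genes. The share of all genes that meet this rule was not computed.

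Asah2, a ceramidase that frees sphingosine, was higher in the keratinocyte-gene region, at 283 against 68.6 and 309 against 57.5 CPM in the S1pr2 f/f and S1pr2 f/f K14-Cre section. Lower there were Asah1, the lysosomal ceramidase (log2 ratio −1.41 and −2.44), and Plpp3, a phosphatase of S1P outside the cell (−1.77 and −1.84). So was Aldh3a2, which oxidises the aldehyde left by the lyase (−1.52 and −2.71). Its value in the S1pr2 f/f K14-Cre section (−5.78 to −0.81) rests on 2 UMIs in the region. As many or more were found there for 59.0% of the chemosensory receptor genes.

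For members with at least 100 UMIs in each section, the genes with the most similar profile over the 13 regions were sought among 2788 genes. They were Ubtd1 (Pearson r = 0.93), Chmp5 (0.90) and Rab11a (0.89) for Spns2, and Cdca3, Smarcd2 and Hist2h2bb (each 0.97) for Sphk1. For Sphk2 they were Bclaf1, Wls and Matn2 (each 0.89), and for Sgpl1 Glmp (0.84), Elk4 and H2-Eb1 (each 0.83). These values describe regions of 2 libraries, which share depth and background within a library. The best of 2788 genes over only 13 regions can reach high r without a relation between the genes, and no chance level was computed.

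Between the sections, the S1P genes other than S1pr1, S1pr3 and S1pr4 had lower levels over all spots of the S1pr2 f/f K14-Cre section. The keratinocyte-gene region held 21.8% of all UMIs in the S1pr2 f/f and 13.8% in the S1pr2 f/f K14-Cre section, so these sums mix the layers in unlike shares. Over all spots the log2 ratio of S1pr2 f/f K14-Cre over S1pr2 f/f was −1.67 (−1.94 to −1.41) for Spns2, −1.15 (−1.40 to −0.91) for Sgpl1, −0.89 (−1.14 to −0.64) for Sphk2, −0.81 (−1.13 to −0.50) for Sphk1, −0.67 for Sgpp2, −0.61 (−1.09 to −0.15) for S1pr2 and −0.57 for S1pr5. It was 0.12 (−0.27 to 0.51) for S1pr1, 0.63 for S1pr4 and 1.12 (0.65 to 1.60) for S1pr3. The widest shift over all spots was that of Spns2, whose level was lower in the S1pr2 f/f K14-Cre section in the keratinocyte-gene region, by −1.48 (−1.91 to −1.08), and in the other spots, by −1.36 (−1.72 to −1.003). In the keratinocyte-gene region the widest was that of Sgpl1, at −1.97 (−2.96 to −1.12). The intervals in this region held 0 for S1pr2, S1pr5 (−0.12, −1.10 to 0.77), Sphk1 (−0.37, −1.10 to 0.31) and Sgpp2 (−0.43, −1.60 to 0.59). So did those of S1pr4 (0.04, −1.33 to 1.25) and, with 1 UMI in each section, S1pr1 (1.57, −4.73 to 7.86). That of S1pr3 did not, at 1.57 (0.058 to 3.07) with 9 UMIs in each section. In the sebaceous-gene regions Sgpp2 was at 0.21 (−0.44 to 0.83). With each spot thinned to 1000 UMIs, S1pr5 and Sgpp2 turned to 0.024 and 0.51 over all spots.

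At least 2-fold higher in the S1pr2 f/f K14-Cre section over all spots was 1 of 10 members (S1pr3), against 28.5% of 18125 genes, and 2 were lower (Sgpl1 and Spns2), against 4.59%. In the keratinocyte-gene region, where 7 members had enough UMIs, none was higher, against 20.4% of 8195 genes, and 3 were lower (Sphk2, Sgpl1 and Spns2), against 14.5%. S1pr1, S1pr2 and S1pr3 had too few UMIs there to be counted. The median log2 ratio was −0.63 for the members and 0.40 for all genes tested over all spots. These counts moved with the scaling. With the TMM factors of edgeR every log2 ratio was lower by 0.37 over all spots, which left no member 2-fold higher and 5 lower. This shift applies to all genes, and their share past 2-fold was not computed under it, so the members cannot be set against it.

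Values that differ between the sections as a whole stood beside these ratios. The 1226 chemosensory receptor genes together were 2.70-fold higher (log2 ratio 1.43, 1.40 to 1.46) over all spots and 6.14-fold higher in the keratinocyte-gene region of the S1pr2 f/f K14-Cre section, and the median depth per spot was lower in that section. The keratinocyte-gene regions also differed in basal keratinocyte markers, with 1 of 7 higher in each S1pr2 f/f cluster and 6 of 7 in the Cre section. The part of these differences in the ratios of the S1P genes was not tested, and genotype, mouse, section and library cannot be told apart.

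**Figure D5:**
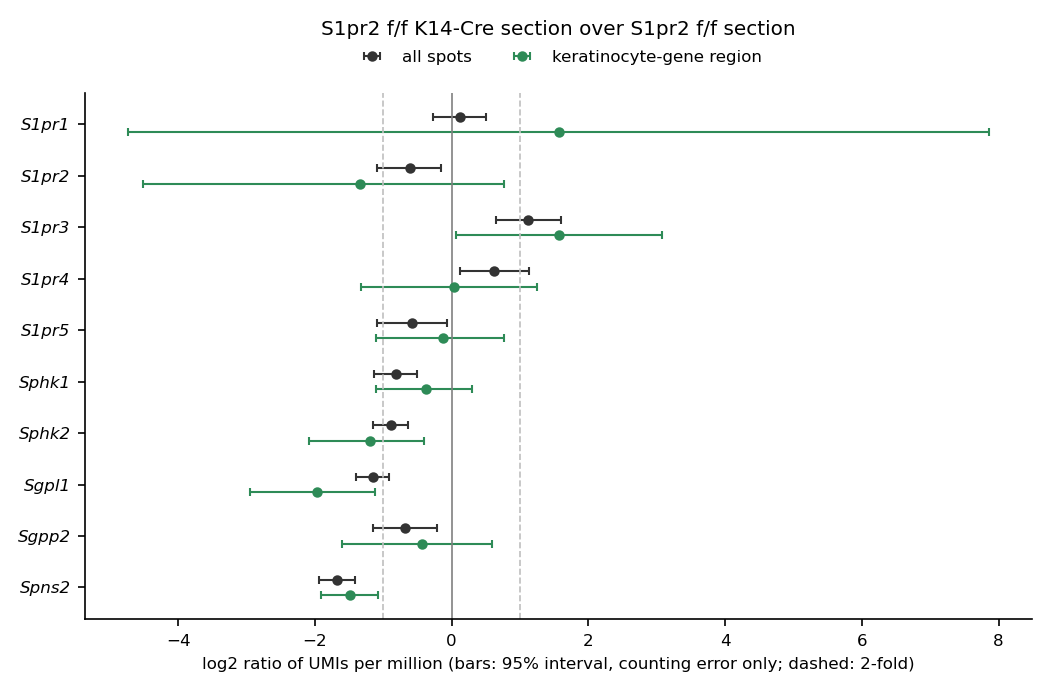
Log2 ratio of each S1P gene in the S1pr2 f/f K14-Cre over the S1pr2 f/f section, over all spots (black) and in the keratinocyte-gene region (green), with 95% intervals for counting error and dashed lines at 2-fold. Spns2 lies at −1.67 and −1.48, and the interval of S1pr2 in the keratinocyte-gene region runs from −4.51 to 0.76.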

How the data were processed

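Visium CytAssist libraries of 10 µm formalin-fixed paraffin-embedded sections, read out with probes, were processed by the authors with Space Ranger (spaceranger 3.0.0 per the file headers; mm10 per the submitters' processing notes), and the deposited values are raw UMI counts per gene and spot, not normalized. The study further names Partek Flow, whose output was not used here. Spots under 50 UMIs were left out (46 and 7), and the rest were clustered within each section with scanpy 1.11.5 and leidenalg 0.10.2 (2000 variable genes, 20 components, 15 neighbours, resolution 1), without the S1P genes and without a doublet caller, since spots hold several cells. A region was named where at least 50% of a layer's markers were at least 2-fold higher. Left unnamed by this rule were shallow clusters with none of these markers among their leading genes, and clusters led by genes of another list. The shallow cluster of 158 spots, with 7 of 7 muscle markers higher, was still counted with the muscle-gene regions. Sebaceous genes were added to the naming lists after the clusters were seen. Levels are UMIs per 1000000 UMIs. Intervals (95%) are exact Poisson for levels and conditional binomial for ratios (scipy 1.17.1), computed in Python 3.11.15. They cover counting error only. With 1 library per genotype no test was made. Background shares cover genes with at least 20 UMIs. TMM factors came from edgeR 4.0.16 (R 4.3.3) as an alternative scaling. Metabolism genes were named if they differed at least 2-fold in the same direction in both sections with intervals that leave out equality, and similar genes as the 3 with the highest Pearson r over regions, on log2 levels with a pseudocount of 5, among genes with at least 200 UMIs. The S1P genes, lists and rules were chosen with earlier results of these data known. The ratio, its interval and the 2-fold call were tested on simulated counts for the keratinocyte-gene region of the S1pr2 f/f section. These counts had a Poisson spread, so the test does not cover UMIs that lie together in a spot. A list of genes that act after the receptors is not reported here.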

Additional observations from a re-analysis of the deposited data

Results flagged for a closer look

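S1pr4 differed in direction between the sections: its log2 ratio of the keratinocyte-gene region to the other spots was 0.66 in the S1pr2 f/f section and −0.11 in the S1pr2 f/f K14-Cre section. The intervals, −0.11 to 1.40 and −1.39 to 0.97, both hold 0, and the difference between the sections was not tested. The direction in the S1pr2 f/f K14-Cre section turned positive in 4 of 9 other settings, which ran from −1.61 to 0.86, and with spots given to the layer of highest marker share it was 0.86 (0.056 to 1.63).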

How the results depend on the processing

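Of 351 ratios under 8 other settings and 3 chosen after seeing the data, 301 stayed within the interval of the reported value, 43 left it, and 7 turned a ratio whose interval leaves out 0. In all 33 had the other sign than the reported value, 26 of them where its interval holds 0. The cause of these changes was not tested. Counts of members under other settings stand without the share of all genes, which was not computed for those settings. With the 2 uppermost spots of each array column as the surface layer, the log2 ratio of this layer to the other spots was 1.65 and 1.55 for Spns2 in the S1pr2 f/f and S1pr2 f/f K14-Cre section, −2.75 and −0.54 for S1pr1, −0.23 for S1pr2 in the Cre section, 0.18 for Sphk2 in the S1pr2 f/f and 0.10 for Sgpl1 in the Cre section, where 4 members were 2-fold higher and 0 lower, and 2 were higher between the sections. Spots given to the layer of highest marker share gave 1.70 and 1.29 for Spns2 and 0.14 for Sphk2 in the S1pr2 f/f section, with 1 member higher there, 4 higher and 1 lower in the Cre section, and 2 higher between the sections. Taking the sebaceous-gene clusters into the region (chosen after seeing the data) gave 1.81 and 0.85 for Spns2, −0.56 for S1pr2 and 0.31 for Sphk2 in the S1pr2 f/f section and 0.0080 for Sgpl1 in the Cre section, with 1 member lower in each section and 2 higher between them. Thinning each spot to 1000 UMIs gave −0.52 for S1pr2 in the S1pr2 f/f section (1 member lower) and 2.85 for Spns2 in the Cre section (1 member higher), and between the sections over all spots 0.024 for S1pr5 and 0.51 for Sgpp2, with 0 members higher and 1 lower.

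With TMM factors, Spns2 differed between the sections by −2.04 over all spots and −2.18 in the keratinocyte-gene region, with 0 members higher over all spots and 5 lower in each. Counting each spot once for a gene (chosen after seeing the data) gave Spns2 1.29 for the region in the S1pr2 f/f section and −0.82 between the sections in the region, with 1 member lower there, and 0 higher and 1 lower over all spots. Taking off the mean chemosensory receptor UMIs left 7 members lower over all spots, and clustering at resolution 0.5 gave 1 higher in the region. For S1pr2 between the sections in the region, 9 alternatives ran from −2.04 to 0.06. No paired analysis was possible because each genotype has 1 section. Depth limits S1pr1, S1pr2, S1pr3 and S1pr4 in the keratinocyte-gene region most.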
